A study of Mus musculus with 8 samples.

Results

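The fibrinogen gene cluster of the mouse is formed by 3 neighbouring genes, Fgg, Fga and Fgb, taken here by their symbols out of 21883 protein-coding genes in a RefSeq gene table on GRCm38.p6. RNA polymerase II (Pol II) over these genes was measured in the liver with ChIA-PET, in which chromatin bound by Pol II is enriched with an antibody. DNA fragments that share a complex are then ligated through a linker and sequenced from both sides, and each such read pair is a paired-end tag (PET). A PET end was assigned to the cluster when its deposited position lay between the first base of Fgg and the last base of Fgb, and to the region when it lay there or within 50 kb on either side. Of 2753554 PETs in the table, 1107 had an end in the region, 855 had an end over the cluster and 696 had an end over 1 of the 3 genes.

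All mice were wild-type C57BL/6 animals of 3 to 6 months, kept on 12 h of light and 12 h of dark and fed freely. Livers were taken in the middle of the day (ZT06, where ZT counts hours from lights on) or of the night (ZT18), and chromatin of 3 to 7 livers was combined for each pulldown with the antibody 8WG16. The labels describe 8 libraries in 3 experiments, 4 in experiment 1 and 2 each in experiments 2 and 3, with day and night in equal number in each. Experiment 2 was crosslinked with 1% formaldehyde alone, and experiments 1 and 3 with 1% formaldehyde and 1.5 mM EGS, a second crosslinker that reaches over a longer span. The deposited rows name the experiment but no library or time point, so day was not compared with night. Each experiment is therefore 1 value that combines its day and night libraries, there is no spread between replicates, and the intervals given are 95% intervals that cover counting error only. Intervals for densities and their ratios treat PET ends as independent. The ends of a short PET are not, so these intervals are too narrow even for counting error. Because whole liver was used, more cells with Pol II on a gene and more Pol II on it per cell cannot be told apart.

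Fibrinogen is the soluble plasma protein from which clots are built. It is assembled from the alpha chain (Fga), the beta chain (Fgb) and the gamma chain (Fgg), and thrombin cuts short peptides from the alpha and beta chains to turn it into fibrin. Hepatocytes make nearly all of it, and its synthesis rises in the acute-phase response, the change in liver protein output that interleukin-6 and glucocorticoids drive during inflammation. The chains are needed in equal amounts, and the genes lie side by side in mammals.

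On GRCm38, Fgg lies on the forward strand of chromosome 3 from 83007724 to 83015056 (gene ID 99571, 7.33 kb). Fga follows on the same strand from 83026153 to 83033627 (gene ID 14161, 7.48 kb), and Fgb lies on the reverse strand from 83042246 to 83049863 (gene ID 110135, 7.62 kb). The cluster thus spans 42.14 kb, with 11.1 kb between Fgg and Fga and 8.62 kb between the 3′ ends of Fga and Fgb, which face each other. The gene table also lists a pair of long noncoding RNA genes in the region. Gm30097, on the reverse strand, begins 692 bp inside Fgg and runs away from it, and since the assay reads no strand, PET ends there cannot be told apart between the pair. Gm40075 lies between Fga and Fgb, from 83037077 to 83038974, and held 0, 1 and 2 ends in experiments 1, 2 and 3.

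The 300 bases around each gene start are shown because PET ends were dense there in every experiment and because the factors that act on these genes in the liver have known short binding motifs. They run 5′ to 3′ on the gene's own strand, from 250 bases before the start to 50 bases of the gene, and come from RefSeq on GRCm38.p6, where all 3 genes were matched. Capitals mark matches on either strand to CTGGGA, the core of the interleukin-6 response element bound by STAT3, to ATTAAC, a half-site of HNF1, and to TTGCNNAA, a C/EBP motif. TATAAA, the TATA box, was searched as well.
Fgg, chr3:83007474-83007773, forward strand: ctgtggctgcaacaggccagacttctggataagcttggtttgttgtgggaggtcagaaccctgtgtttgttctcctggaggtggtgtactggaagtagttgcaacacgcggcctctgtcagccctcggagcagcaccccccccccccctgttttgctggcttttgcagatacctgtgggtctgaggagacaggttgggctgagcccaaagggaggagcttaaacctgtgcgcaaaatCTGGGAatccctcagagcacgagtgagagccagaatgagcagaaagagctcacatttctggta
Fga, chr3:83025903-83026202, forward strand: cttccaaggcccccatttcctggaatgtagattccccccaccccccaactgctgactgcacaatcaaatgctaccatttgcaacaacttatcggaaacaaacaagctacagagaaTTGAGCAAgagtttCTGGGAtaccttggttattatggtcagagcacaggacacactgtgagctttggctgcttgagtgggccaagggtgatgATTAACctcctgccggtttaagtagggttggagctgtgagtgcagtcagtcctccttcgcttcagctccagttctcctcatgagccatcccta
Fgb, chr3:83049814-83050113, reverse strand: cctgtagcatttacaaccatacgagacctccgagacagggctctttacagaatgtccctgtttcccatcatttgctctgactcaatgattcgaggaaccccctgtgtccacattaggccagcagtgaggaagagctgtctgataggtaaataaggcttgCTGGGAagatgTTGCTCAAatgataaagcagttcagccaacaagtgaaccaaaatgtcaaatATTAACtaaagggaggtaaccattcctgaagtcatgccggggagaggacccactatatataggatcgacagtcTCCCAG

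CTGGGA was found in all 3 windows, against 31.8% of 17491 promoter windows of the same length. With the first base of the gene counted as 0, it lay from -13 to -8 in Fgg, from -121 to -116 in Fga and from -91 to -86 in Fgb, and its reverse complement lay from 44 to 49 in Fgb. ATTAAC was found in Fga, from -43 to -38, and in Fgb, from -29 to -24, against 6.29% of all windows. TTGCNNAA was found in the same 2 genes, from -135 to -128 on the other strand in Fga and from -80 to -73 in Fgb, against 10.1% of all windows. The C/EBP match came before CTGGGA in Fga and after it in Fgb. The exact letters TATAAA were in none of the 3 windows, and in 13.3% of all windows. Other forms of the TATA box were not searched, so their absence is not shown. The Fgb window, for instance, holds TATATATA past the first base of the gene. A match describes the letters only, and no overlap between the motifs occurred in these windows.

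PET ends over these 300 bases were counted next. The Fga window had 25, 13 and 8 ends in the order of the experiments. The Fgg window had 14, 6 and 10 ends, and the Fgb window had 9, 8 and 6. Set against the mean density of nuclear PET ends in the same experiment, which is called relative density here and is 1 for the genome mean, the Fga window stood at 239 (155 to 353), 41.0 (21.8 to 70.1) and 43.3 (18.7 to 85.3). The Fga window was thus the densest of the 3 in experiments 1 and 2 and the Fgg window in experiment 3, with overlapping intervals between the pair each time.

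Over the whole gene spans, the gamma-chain gene Fgg carried the most PET ends, namely 208, 69 and 92 in the order of the experiments. Its relative density was 81.4 (70.7 to 93.2), 8.90 (6.93 to 11.3) and 20.4 (16.4 to 25). The alpha-chain gene Fga had 151, 42 and 76 ends, or relative densities of 57.9 (49.1 to 68.0), 5.32 (3.83 to 7.18) and 16.5 (13 to 20.7). The beta-chain gene Fgb had 119, 40 and 63 ends, or relative densities of 44.8 (37.1 to 53.6), 4.97 (3.55 to 6.76) and 13.4 (10.3 to 17.2). In all 3 experiments the order was Fgg, Fga, Fgb, and experiment 1 gave the highest and experiment 2 the lowest value for each gene.

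**Figure D1:**
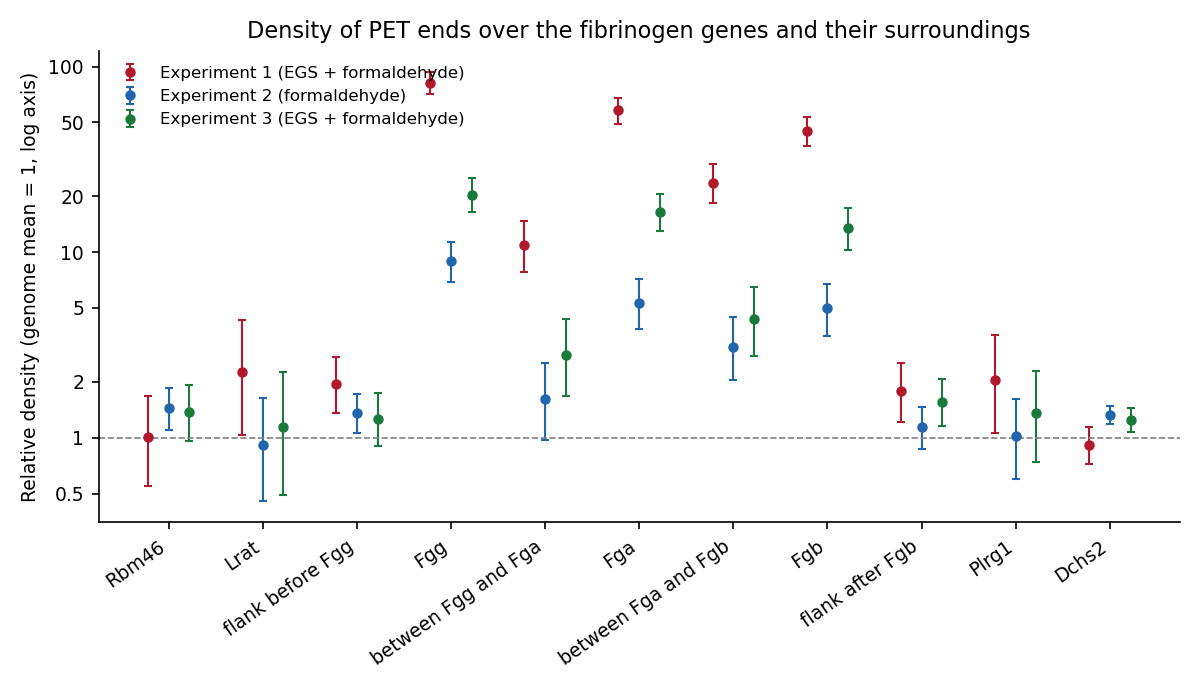
Relative density of PET ends (genome mean 1, log axis) over the fibrinogen genes, the stretches between them, the 50 kb flanks and 4 neighbouring genes, in each experiment. The neighbours drawn are Rbm46, Lrat, Plrg1 and Dchs2, and Gm10710 is not drawn. Points are values and bars are 95% Poisson intervals. Fgg, Fga and Fgb stand above their flanks and neighbours in every experiment, from 4.97 for Fgb in experiment 2 to 81.4 for Fgg in experiment 1.

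Not every step of that order exceeded counting error. The ratio of Fgg to Fgb, per base, was 1.82 (1.44 to 2.29), 1.79 (1.20 to 2.72) and 1.52 (1.09 to 2.12), with each interval above 1. In experiment 2 the interval came to include 1 with 2.5 kb added on either side of the genes, at 1.30 (0.922 to 1.84), and from PETs between chromosomes alone, at 1.41 (0.883 to 2.26). For Fgg over Fga it was 1.40 (1.13 to 1.74), 1.67 (1.12 to 2.52) and 1.23 (0.901 to 1.69), so the interval of experiment 3 included 1. For Fga over Fgb it was 1.29 (1.01 to 1.66), 1.07 (0.677 to 1.69) and 1.23 (0.869 to 1.75), so these neighbours in the order were not distinguishable in experiments 2 and 3. In experiment 1 this interval also included 1 under 3 alternatives, with values from 1.05 (0.852 to 1.30) to 1.27 (0.990 to 1.64). In experiment 2 the ratio of Fga to Fgb fell below 1 with 2.5 kb on either side, at 0.931 (0.640 to 1.35). It was also below 1 from PETs between chromosomes alone, at 0.749 (0.429 to 1.29), and with each PET counted once, at 0.912 (0.557 to 1.49). The ends of a short PET fall side by side and are not independent. With each PET counted once per gene, the ratio of Fgg to Fga in experiment 1 was 1.26 (0.985 to 1.60), and from PETs between chromosomes alone it was 1.13 (0.829 to 1.55). In experiment 2 it was 1.40 (0.983 to 1.99) with 2.5 kb on either side.

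The linker read in a PET divides each experiment into a pair of subsets, for which the sources used here give no library or time point. Fgg was the densest of the 3 genes in all 6 subsets, from 7.36 (5.35 to 9.88) in the TAAG subset of experiment 2 to 97.5 (79.5 to 118) in the ATGT subset of experiment 1. Fga exceeded Fgb in 4 of the 6. The exceptions were the TAAG subset of experiment 2, where the ratio of Fga to Fgb was 0.917 (0.525 to 1.60), and the ATGT subset of experiment 3, where it was 0.860 (0.496 to 1.48).

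Among all 21883 protein-coding genes, the median relative density was 1.13, 1.17 and 1.39 in experiments 1, 2 and 3. All 3 fibrinogen genes had a relative density of at least 3 in each experiment, as did 488 genes, or 2.23% of all. Fgg ranked 23, 66 and 37 of all genes, Fga 41, 187 and 56, and Fgb 65, 225 and 88. Short genes reach extreme densities by chance more readily than long ones, so the ranks were also taken among the 2891 genes of 5 to 10 kb. There Fgg ranked 4, 7 and 4, Fga 7, 28 and 7, and Fgb 12, 33 and 11. With the experiments combined, the genes above Fgg in this length class were Pck1, which encodes a rate-limiting enzyme of gluconeogenesis, Fabp1, the fatty acid binding protein of the liver, and Ahsg, which encodes the plasma protein fetuin-A. Their combined relative densities were 50.0, 32.7 and 26.7, against 24.9 for Fgg, 17.8 for Fga and 14.4 for Fgb.

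**Figure D2:**
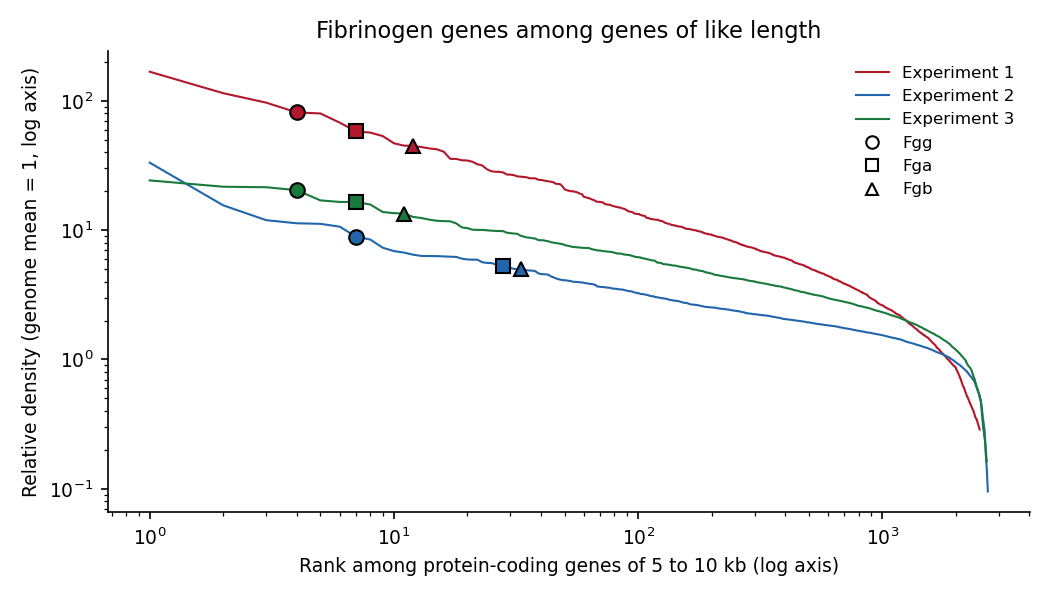
Relative density (genome mean 1, log axis) of the 2891 protein-coding genes of 5 to 10 kb against their rank (log axis), 1 line for each experiment, with Fgg, Fga and Fgb marked. The fibrinogen genes lie at ranks 4 to 12 in experiments 1 and 3, and at 7, 28 and 33 in experiment 2.

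The signal ended close to the cluster. The 50 kb before Fgg had relative densities of 1.95 (1.35 to 2.73), 1.36 (1.07 to 1.72) and 1.27 (0.901 to 1.73) in experiments 1, 2 and 3, and the 50 kb beyond the start of Fgb had 1.78, 1.14 and 1.56. Of the 100 windows of 1 kb in these flanks, 70, 32 and 56 held no end. The genome mean was 0.349, 1.06 and 0.616 nuclear ends per kb, so a window at that mean holds few ends. The windows at -35 to -30 kb and at 81 to 86 kb from the start of Fgg held no end in any experiment. Why flank windows were empty was not tested. Plrg1, a splicing factor gene that begins beyond the start of Fgb at 83055538, had 2.05, 1.02 and 1.36 over its span. The 1 kb window 47 kb from the start of Fgg, which holds the start of Plrg1, had 4, 8 and 2 ends. On the other side, Lrat, which encodes the enzyme that esterifies retinol and marks stellate cells in liver, had 2.27, 0.913 and 1.14, and Rbm46 had 1.00, 1.44 and 1.38. Farther off, Dchs2 had 0.911, 1.33 and 1.25. The predicted gene Gm10710, which overlaps the start of Dchs2, had no end in experiment 1 and 1.43 and 3.68 in experiments 2 and 3. None of the 5 protein-coding neighbours within 250 kb reached a relative density of 3 in all 3 experiments.

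Within the cluster, 80.9% (77.5 to 84.0%), 76.3% (69.7 to 82.0%) and 84.6% (79.8 to 88.7%) of the ends lay over the 3 genes, and the stretches between them were unequal. Between Fgg and Fga, the relative density was 10.9, 1.62 and 2.78. Between the facing 3′ ends of Fga and Fgb it was 23.6, 3.07 and 4.33, the higher of the pair in each experiment.

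In 1 kb windows from the start of Fgg, the first window was the densest of the region in each experiment, with 78, 24 and 30 ends. Over the genome, 51, 279 and 111 windows of 1 kb held at least as many. Along Fgg, experiment 1 had 78 ends, then 40, 36, 23, 14, 8 and 6 in the next 6 windows. Experiment 2 had 24, then 10, 12, 9, 5, 2 and 5 in the same windows. Experiment 3 had 30, then 18, 20, 11, 4, 3 and 3. Between 9 and 18 kb, in the stretch up to Fga, no window had more than 3 ends. The window 18 kb from the start of Fgg, which holds the start of Fga, had 58, 21 and 19 ends, and the next had 10, 4 and 13. With windows of 500 bp, the densest window in experiment 2 was the one at 18 kb, at the start of Fga.

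**Figure D3:**
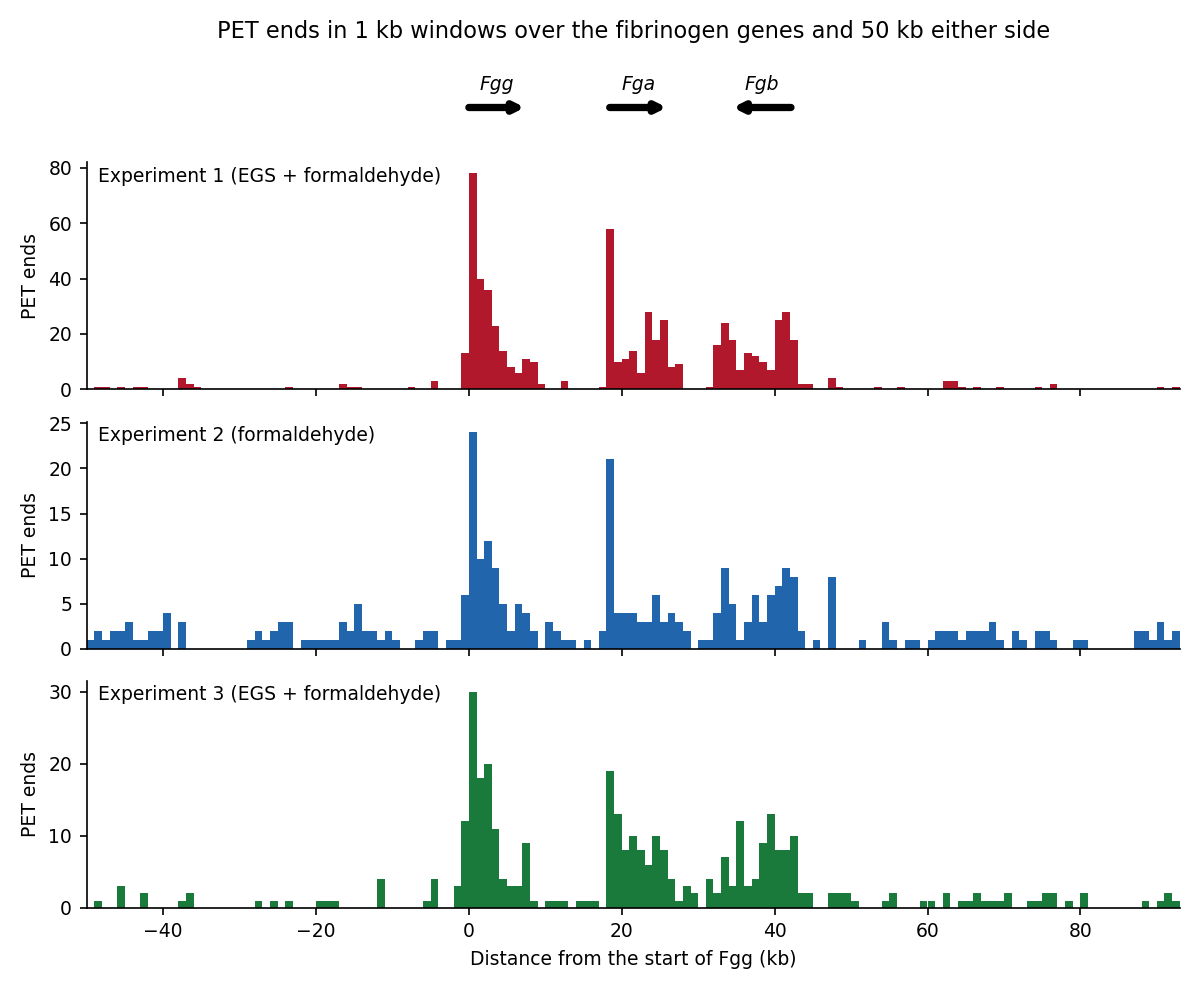
PET ends in windows of 1 kb (bars) against the distance from the start of Fgg, for the 3 experiments, with arrows for the genes in the direction of transcription. The first window of Fgg is the highest in each experiment with 78, 24 and 30 ends, the window at the start of Fga has 58, 21 and 19, and the flanks are mostly at 0 to 3.

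The genes were divided in the direction of transcription into the first 1 kb, the body, the last 1 kb and the 3 kb past the 3′ end. The first 1 kb of Fgg had a relative density of 224 (177 to 279), 22.7 (14.5 to 33.8) and 48.7 (32.9 to 69.6). That of Fga had 132 (96.6 to 176), 18 (10.8 to 28.1) and 30.9 (18.6 to 48.2), and that of Fgb had 103 (72.3 to 143), 11.4 (5.87 to 19.8) and 13 (5.61 to 25.6). Each gene was thus highest at its start in experiments 1 and 2. In experiment 3 the first 1 kb of Fgb did not stand above its body, with a ratio of 0.956 (0.390 to 2.04), where it was 2.81 (1.83 to 4.25) in experiment 1.

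With the experiments combined, the first 1 kb was 3.16 (2.53 to 3.93) times as dense as the body in Fgg, 3.09 (2.33 to 4.06) times in Fga and 2.18 (1.57 to 2.99) times in Fgb. Combined values weigh experiment 1 most for these genes, since it gave the most ends. Without it the ratio in Fgb was 1.56 (0.900 to 2.59), an interval that includes 1. For comparison, 77 genes that had a relative density of at least 3 in each experiment, at least 50 ends, a length of at least 4 kb and no other protein-coding gene over the parts compared had a median ratio of 4.27 (quartiles 2.02 and 7.10). The fibrinogen genes thus lay within the middle of these genes, and the share with a higher ratio was 55.8% for Fgg, 55.8% for Fga and 71.4% for Fgb.

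The 3′ ends of the genes were read in the same way. In the last 1 kb, the combined density relative to the body was 0.335 (0.180 to 0.574) in Fgg, 1.32 (0.893 to 1.91) in Fga and 0.858 (0.522 to 1.35) in Fgb, against a median of 0.604 in the 77 genes. By experiment it was 0.169, 0.667 and 0.468 in Fgg and 1.71, 0.821 and 0.894 in Fga. The gap between Fgg and Fga rested on experiment 1, without which the ratios were 0.550 (0.256 to 1.06) and 0.873 (0.416 to 1.66). In the 3 kb past the 3′ end the combined ratio was 0.247 (0.164 to 0.361) for Fgg, 0.404 (0.268 to 0.593) for Fga and 1.04 (0.781 to 1.38) for Fgb, against a median of 0.581. Without experiment 1 these were 0.202 (0.0974 to 0.377), 0.397 (0.211 to 0.70) and 0.702 (0.434 to 1.11). The stretch past Fgb had 53, 16 and 11 ends in experiments 1, 2 and 3, the same length past Fgg had 20, 4 and 7, and past Fga 18, 9 and 6. By experiment the ratio past Fgb was 1.38 (0.948 to 1.99), 1.20 (0.598 to 2.34) and 0.438 (0.205 to 0.857). Past Fga it was 0.411 (0.232 to 0.691) in experiment 1, apart from Fgb, and 0.821 (0.329 to 1.89) in experiment 2, overlapping Fgb. In experiment 3 the interval past Fgb overlapped those of Fgg, at 0.218 (0.0840 to 0.480), and Fga, at 0.223 (0.0782 to 0.522). The intervals past Fgb and past Fgg were thus apart in experiments 1 and 2 and not in experiment 3. With each PET counted once, an alternative added after seeing the data, they stayed apart in experiment 1, at 1.33 (0.875 to 2.01) past Fgb and 0.325 (0.182 to 0.549) past Fgg. In experiment 2 they then overlapped, at 1.09 (0.522 to 2.20) and 0.209 (0.0539 to 0.586). From PETs between chromosomes alone, also added later, experiment 2 had 1.37 (0.509 to 3.54) past Fga and 0.936 (0.410 to 2.01) past Fgb. Of the 77 genes, 24.7% had a higher ratio past the end than Fgb.

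**Figure D4:**
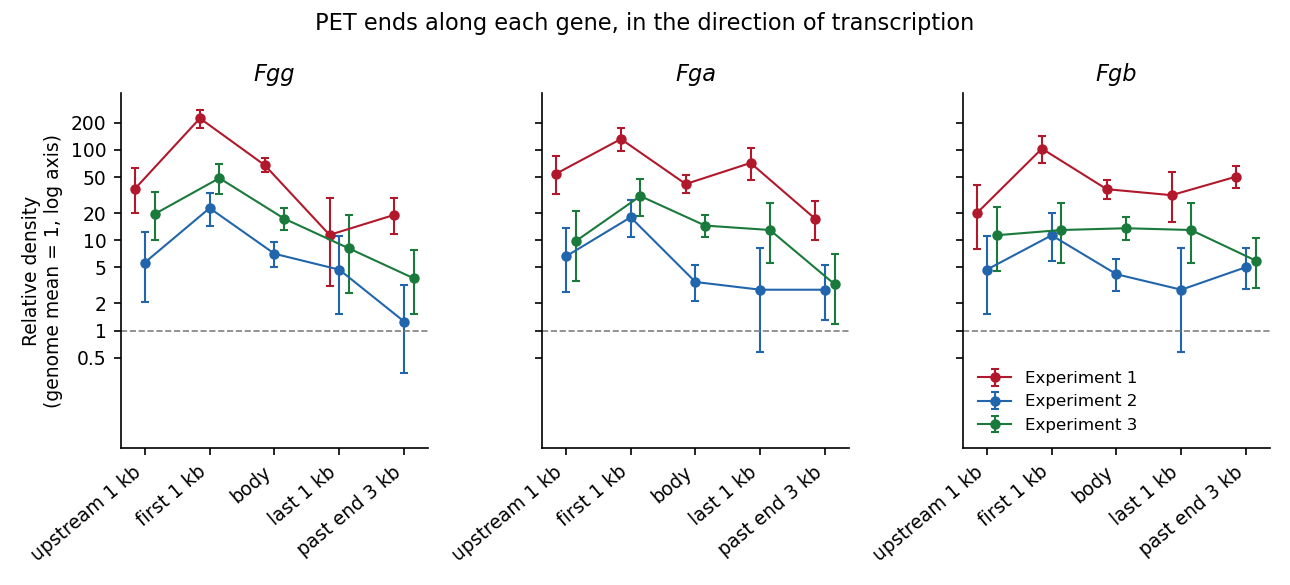
Relative density (genome mean 1, log axis) in 5 parts of each fibrinogen gene, in the direction of transcription, by experiment. Points are values, bars are 95% Poisson intervals, and lines join parts of 1 experiment. All 3 genes peak in the first 1 kb in experiments 1 and 2, and past the 3′ end Fgb stays at 50.7 in experiment 1 where Fgg is at 19.1 and Fga at 17.2.

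PETs that join distant points were then taken from the region. In all, 7 PETs with ends more than 2 kb apart (2.81 to 14.4) had both ends in it, 4 in experiment 1, 1 in experiment 2 and 2 in experiment 3. No PET joined the span of 1 fibrinogen gene to that of another, and a count of 0 allows up to 3 PETs as a one-sided limit. Since the gaps between the genes exceed 8 kb, shorter PETs could not do so either. At this depth, contact between the gene bodies was not detectable.

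Each of the 7 was a single PET whose read positions no other PET shared. The longest, of 25.07 kb in experiment 1, ran over the whole of Fgg, from 7245 bp upstream of its start to 604 bp upstream of the start of Fga. Next came a PET of 11.158 kb in experiment 2, from 651 bp upstream of the start of Fga to 3033 bp past its 3′ end, so that it enclosed Fga. These 2 PETs, from different experiments, thus each had an end about 0.6 kb upstream of Fga. They were the only ones over 8 kb.

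Around Fgb, a PET of 7.05 kb in experiment 1 ran from 188 bp before the 3′ end of Fga to 1757 bp past the 3′ end of Fgb. A PET of 7.073 kb in experiment 3 ran from 2502 bp past the 3′ end of Fgb back to 3046 bp downstream of its start. The 3 kb past the 3′ end of Fgb thus held an end of both. In experiment 3 that stretch was less dense than the body of Fgb, with a ratio of 0.438 (0.205 to 0.857). The remaining PETs were shorter. A PET of 4.584 kb in experiment 1 joined a point 757 bp upstream of Fgg to its body, a PET of 2.334 kb in experiment 1 lay within Fgb, and a PET of 2.243 kb in experiment 3 lay upstream of Fgb.

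**Figure D5:**
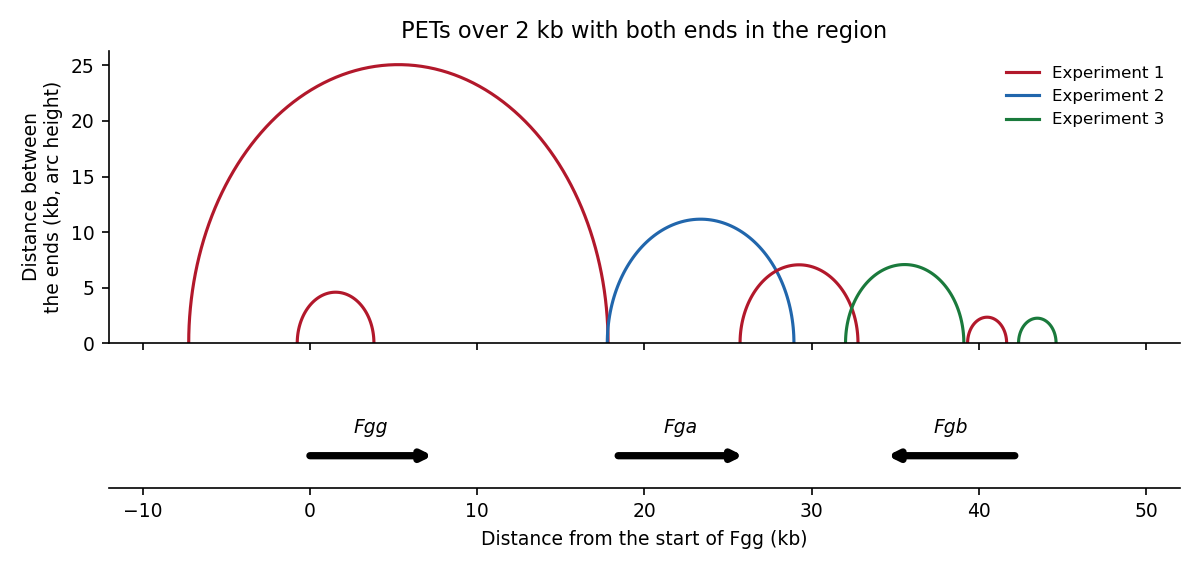
The 7 PETs over 2 kb with both ends in the region, drawn as arcs against the distance from the start of Fgg, with arc height equal to the distance between the ends in kb and colour by experiment. No arc has its feet in 2 different fibrinogen genes, and the longest spans 25.07 kb over Fgg.

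Of 19163 genome windows of the same length as the region, 142140 bp, 78 or 0.407% held at least 7 such PETs, and the mean was 0.628. A region with more ends has more PETs of every kind, however. For every 100 PETs with ends at most 2 kb apart, the region had 2.61 (0.712 to 6.69), 3.70 (0.0938 to 20.6) and 3.85 (0.466 to 13.9) PETs over 2 kb in experiments 1, 2 and 3. All windows together had 2.38, 2.88 and 5.97, inside the region's interval each time. With a minimum of 1 kb in place of 2 kb, the number of PETs was 18, and with 8 kb it was 2. Another 35 PETs joined the cluster to points on chromosome 3 outside the region, from 2.17 to 76.6 Mb away.

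PETs with an end over the cluster were more often short than PETs in general. The share with ends at most 2 kb apart was 33.3% (29.0 to 37.9%), 13.2% (8.57 to 19.2%) and 18.8% (14.0 to 24.4%) by experiment, against 22.1%, 6.08% and 14.1% of all nuclear PETs. The interval for the cluster lay above the share of all PETs in experiments 1 and 2 and reached down to it in experiment 3. The albumin and apolipoprotein clusters, described below, also had raised shares in experiments 1 and 2. A PET between chromosomes counts in 2 regions and a short PET in 1, so by construction the share of short PETs in an average region is below that of all PETs. Most partners lay on other chromosomes, with 61.7% (57.1 to 66.3%), 81.6% (75 to 87.1%) and 76.9% (71.0 to 82.2%), against 73.1%, 88.7% and 80.2% of all.

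The 598 partners on other chromosomes were spread over 20 chromosomes. They lay in protein-coding gene spans in 46.4%, 45.1% and 52.2% of cases, against 46.7%, 45.0% and 49% of all ends of PETs between chromosomes. Of the 598, 10 lay over a gene with a relative density of at least 3 in each experiment, each over a different gene, among them Alb for albumin. By experiment this was 2.54% (1.03 to 5.16%), 0.704% (0.0178 to 3.86%) and 1.11% (0.135 to 3.96%), against 1.69%, 0.453% and 0.763% of all such ends, which lay inside each interval. With the experiments combined the share was 1.67% (0.805 to 3.05%) against 0.732%. Experiment 1, which has the highest share in both, gave 276 of the 598 partners but 651063 of all 4308509 ends, so the combined shares mix the experiments unequally.

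Of the protocol steps in the labels, crosslinking is the one that differs between the experiments. Over the cluster the relative density was 40.2 (37.1 to 43.6), 4.44 (3.85 to 5.11) and 10.5 (9.31 to 11.8) in the order of the experiments. Experiment 1 was thus 9.05 times, and experiment 3 2.37 times, above experiment 2, while the 2 dual-crosslinked experiments differed from each other 3.82-fold. On the log2 scale, dual minus single crosslinking was 2.21 for the cluster, 2.19 for Fgg, 2.54 for Fga and 2.30 for Fgb. An exact two-sided permutation test over the 3 experiments gave p = 0.667, and 0.333 is the smallest p it can give. Protocol and experiment cannot be told apart, since formaldehyde alone was used in 1 experiment. From PETs between chromosomes alone, the relative density of the cluster was 25.7, 3.59 and 8.65, in the same order.

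A pair of other liver gene clusters of like length, albumin (Alb and Afp) and the apolipoproteins (Apoa1, Apoc3, Apoa4 and Apoa5), gave values close to these. The albumin cluster had relative densities of 44.5 (41.4 to 47.8), 4.59 (4.02 to 5.22) and 7.37 (6.43 to 8.42), and the apolipoprotein cluster had 31.9 (29.2 to 34.9), 5.33 (4.68 to 6.04) and 7.50 (6.50 to 8.62). The fibrinogen cluster lay between them in experiment 1. In experiment 2 it was the lowest of the 3, at 4.44 (3.85 to 5.11), with an interval that overlapped both others. In experiment 3 its interval lay above those of both, and no test of that difference over replicates was possible. With 50 kb flanks, the albumin cluster held 5 PETs over 2 kb and the apolipoprotein cluster 9, against 7 here, with overlapping intervals. PETs with ends at most 2 kb apart made up 30.4%, 11.4% and 13.9% of those over the albumin cluster by experiment. For the apolipoprotein cluster the shares were 34.7%, 15.4% and 18.8%. Both exceeded the share of all nuclear PETs in experiments 1 and 2, so a raised share was not particular to the fibrinogen cluster.

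Genes of the same system were read from lists chosen with earlier results of these data known. Among 29 genes of coagulation and fibrinolysis, 1 had a relative density of at least 3 in each experiment, or 3.45% against 2.23% of all genes, and the list's medians were 2.65, 1.42 and 1.77. This was Serpinf2, which encodes the plasmin inhibitor alpha-2-antiplasmin, with 12.9, 3.05 and 5.44. By the experiments combined, Hrg (histidine-rich glycoprotein) was the densest of the list, with 20.3, 2.32 and 3.68. Serpinf2 came next, then Serpinc1 (antithrombin) with 8.74, 2.01 and 2.78, and Proz (protein Z) with 7.99, 1.72 and 3.58. The lowest value of Fgb, 4.97 in experiment 2, lay above every gene of this list in that experiment, whose highest was 3.05.

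Among 16 acute-phase genes, 5 (31.2%) had at least 3 in each experiment, against 2.23% of all genes. The medians were 8.55, 1.47 and 3.59. Crp, for C-reactive protein, had 36.0, 4.95 and 9.35. Hamp, for the iron hormone hepcidin, had 34.5, 2.28 and 4.89 and so missed the level of 3 in experiment 2. Hp, for haptoglobin, had 14.9, 7.72 and 8.83, and Hpx, for hemopexin, had 25.6, 5.45 and 4.20. The others of the 5 were Itih4 and Saa4. The serum amyloid genes Saa1 and Saa2, which inflammation induces strongly in liver, had 0, 1 and 3 ends (Saa1) and 0, 1 and 1 ends (Saa2), and as near-identical copies they are uncertain.

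Among 13 genes that regulate fibrinogen synthesis, 4 (30.8%) had at least 3 in each experiment, against 2.23% of all genes. These were the C/EBP genes Cebpa with 99, 15.4 and 28.3, Cebpb with 98.3, 25.5 and 39.6, and Cebpd with 25.4, 3.77 and 12.9, and the interleukin-6 feedback inhibitor Socs3 with 15.5, 5.78 and 9.16. The receptor and kinase genes Il6ra, Il6st, Jak1, Jak2 and the transcription factor gene Stat3 lay between 0.914 and 2.34 in all experiments. Of 19 other genes whose protein has a fibrinogen-like domain, 1 (5.26%) reached 3 in each experiment, against 2.23% of all genes. It was Angptl4, which inhibits lipoprotein lipase, with 16.8, 3.40 and 5.60. Others of the list were the relatives of Angptl4, Angptl6 with 9.54, 1.89 and 7.29, and Angptl7 with 1.63, 1.43 and 2.77. Fgl1, which hepatocytes also secrete, had 2.27, 1.57 and 1.41.

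Markers of cell types were read in the same way. Of 7 hepatocyte markers matched, 4 (57.1%) had at least 3 in each experiment, against 2.23% of all genes, and the list's medians were 27.7, 3.08 and 8.70. None of the 6 Kupffer cell, 6 endothelial, 6 stellate, 5 cholangiocyte and 5 blood markers did, and their lists' medians lay between 0.658 and 2.32. At 2.23% of all genes, lists this short would mostly hold none, so the absence does not set these markers apart from other genes.

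The genes most like the cluster's mean over the 3 genes were then sought by the distance between log2 relative densities in the 6 linker subsets, among 13777 genes with at least 30 ends. Alas1, which encodes the rate-limiting enzyme of heme synthesis in liver, was nearest at 0.533, with relative densities of 59.7, 6.52 and 17.4. Gadd45g followed at 0.689, the cytochrome P450 gene Cyp2e1 at 0.965, Clec2d at 0.985 and Xbp1, a regulator of the secretory pathway, at 1.04, against a median distance of 10.1. The points share libraries and depth within an experiment, so this measure is a description of level more than of pattern.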

How the data were processed

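The authors deposited 1 table of PETs, with no header, whose columns give an experiment code, the linker of each read and the chromosome and position of each end. Codes were matched to experiments by the sample titles. Per the submitters' processing notes, Bowtie2 and the build mm10 were used, in roles that they do not state; the sources used here give no filters. The deposited positions are a unit of their own (neither counts nor signal), and every count was made from them.

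PETs with a mitochondrial end were set aside, which left 2751289. The total was 474478, 1438866 and 840210 PETs in experiments 1, 2 and 3, or 0.349, 1.06 and 0.616 nuclear ends per kb. Relative density is ends per base divided by the experiment's nuclear mean over 2722 Mb, the sum of the highest positions of all chromosomes. Intervals are exact Poisson for counts, exact conditional binomial for ratios of densities and Clopper-Pearson for shares, computed with Python 3.11.15, numpy 2.4.6, pandas 2.3.3 and scipy 1.17.1, and figures with matplotlib 3.10.9. The counting was tested on simulated data. Genes, strands and promoters came from RefSeq tables on GRCm38.p6, the build that mm10 names. No comparison of ZT18 with ZT06 was run, and dual was compared with single crosslinking by an exact permutation test over 3 experiments.

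Named genes were the 3 members, all protein-coding neighbours within 250 kb, the albumin and apolipoprotein clusters, the 4 densest genes of each list with others named for their role after their values were seen, and the 5 genes nearest in level. A gene that this rule names is not reported here. The members and lists were chosen with earlier results of these data known. Alternatives were other spans, windows, flanks, distances and normalisers, PETs counted once, near-duplicates within 10 bp collapsed, PETs between chromosomes only, and leaving out an experiment. The alternatives for the parts of the genes were added after seeing the data.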

Additional observations from a re-analysis of the deposited data

How the results depend on the processing

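No paired analysis was possible because the table names no library, and the experiments share no replicate numbers. Of 206 alternative values for 51 results, 163 were classed as the same, 43 as moved and 0 as reversed. Densities, shares and ratios moved when they left the counting interval. Limits were a fixed fold for PETs over 2 kb, 1 kb for the densest window and the spread between experiments 1 and 3 for crosslinking. Reversal was called for densities below 1, for a change of sign in the crosslinking difference, and for ratios between genes only where the main interval excluded 1. The combined density of the cluster, shares, PET counts, window positions and ratios within a gene had no reversed class. The count of 0 therefore says little. Fga over Fgb in experiment 2 thus fell below 1 under 3 alternatives without being called reversed. The same holds for 2 ratios to the body of Fga that crossed 1. The last 1 kb, combined, went from 1.32 to 0.873 without experiment 1. Past the 3′ end in experiment 2, the ratio went from 0.821 to 1.37 from PETs between chromosomes alone. Collapsing near-duplicates within 10 bp (10177 PETs removed), keeping PETs with an unshared read-1 position (149446 removed), other flanks and a minimum of 4 kb moved no result beyond these limits. For experiments 1, 2 and 3 in that order, the moved densities were these. Spans with 2.5 kb either side gave 55.8, 6.14 and 15 for Fgg, 43.2 (experiment 1) and 11.5 (experiment 3) for Fga, and a ratio of Fgg to Fgb of 1.36 in experiment 1. PETs between chromosomes alone gave 47.6 and 6.69 (experiments 1 and 2) for Fgg, 42.0, 3.57 and 12.2 for Fga, 27.3 (experiment 1) for Fgb and 25.7, 3.59 and 8.65 for the cluster. Counting each PET once gave, in experiment 1, 67.4 for Fgg, 37.1 for Fgb and 34.3 for the cluster. Relative to the median of protein-coding genes, experiment 3 had 14.6 for Fgg, 11.8 for Fga and 9.63 for Fgb, and the cluster had 35.7, 3.81 and 7.55. Relative to the 50 kb flanks, Fgg had 43.6 and 14.4, Fga 31.1 and 11.7 and Fgb 24.0 and 9.51 in experiments 1 and 3, and the cluster had 21.6, 3.56 and 7.45. The start of the densest window in experiment 2 moved to 18 kb with windows of 500 bp. PETs over 2 kb numbered 18 from 1 kb and 2 from 8 kb. Leaving out 1 experiment gave 3 to 6 such PETs, and a combined density of the cluster between 6.68 (without experiment 1) and 21.3 (without experiment 2), with 13.3 without experiment 3. The interval of a ratio between genes came to include 1 in 8 cases, given beside the ratios; in experiment 1, Fga over Fgb was 1.27 (0.97 to 1.66) with unshared positions. Without experiment 1, the combined densities over the body moved to 1.56 (first 1 kb of Fgb), 0.873 (last 1 kb of Fga) and 0.702 (past Fgb). The cause of these moves was not tested beyond the construction of each alternative. Depth limits the contacts, since 7 PETs allow 2.81 to 14.4.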
